A study of Danio rerio with 16 samples.

Results

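Genes of cholesterol synthesis and of low-density lipoprotein (LDL) uptake were examined in zebrafish larvae exposed to PCB153, a polychlorinated biphenyl that persists in tissue and does not act like dioxin. The list given held 30 zebrafish gene names, of which 27 are described here, matched to Ensembl identifiers by symbol or, for cyp51 and mvda, by an alias. All 27 were among the 32105 genes of the count files and passed the filter on low counts that left 21372 genes. The 27 genes comprise 20 synthesis enzymes, 4 regulators (srebf2, scap, mbtps1 and insig1), the LDL receptor duplicates ldlra and ldlrb, and the sterol carrier stard4. For squalene epoxidase (SQLE) a pair of duplicates was counted. The name tables do not say which identifier is the a and which the b copy, so the identifier is printed.

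The study exposed embryos from hour 4 to hour 120 of development to PCB153 at 0.1, 1 or 10 µM, or to the solvent DMSO at 0.1% as the control. Strand-specific total RNA libraries were made from whole larvae at 5 days, with 4 libraries in each of the 4 groups. The labels call these whole animals at the larval stage and name neither a strain, a clutch, a batch nor how many larvae went into a library, so the p-values measure the spread between these libraries only. In RNA from whole animals, fewer cells of a type and less RNA per cell cannot be told apart.

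Cells make cholesterol from acetyl-CoA. The mevalonate pathway yields isoprenoid units that are joined into squalene, closed into lanosterol and trimmed to cholesterol. In mammals, when sterols in the endoplasmic reticulum run low, SCAP carries the transcription factor precursor SREBP2 (encoded by srebf2) to the Golgi, where the protease encoded by mbtps1 cuts it. The released factor switches on the enzymes, the LDL receptor and INSIG1. INSIG proteins hold SCAP back when sterols are plentiful. Larvae at this age also draw cholesterol from the yolk.

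The reads assigned to genes numbered 8069225 to 15531744 in a library. The members had at least 4 reads in every library. Levels are in CPM, read counts scaled to a common library size of 1000000 after TMM adjustment. Because gene lengths were not used, CPM compare libraries for a given gene and not genes with each other. Reads outside annotated genes (uniquely aligned, but placed in no counted feature) moved with the groups. Their share was 31.4% to 35.5% in DMSO, 36.2% to 38.6% at 0.1 µM, 35.1% to 40.4% at 1 µM and 31.7% to 33.3% at 10 µM. Each comparison was therefore also fitted with this share as a covariate. All 0.1 µM shares lay above all DMSO and 10 µM shares, so group and share could hardly be told apart there. A call lost with the covariate therefore does not show that the change came from the share.

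A pair of libraries stood apart in the synthesis enzymes. In 0.1 µM replicate 2, 17 of the 20 enzymes had their highest CPM of all 16 libraries, and the mean difference from the DMSO mean was 0.73 (log2) over the enzymes. In DMSO replicate 2, 8 of the 20 had their lowest CPM of all 16 libraries, and the mean difference was -0.24. The means of the other 14 libraries lay between -0.14 and 0.30. Where leaving out 0.1 µM replicate 2 or this pair of libraries changed a pairwise call, the value without them is given. These libraries were picked after the data were seen, by the enzyme values themselves. Smaller enzyme changes at 0.1 µM without them were therefore built into the choice. Further, 1 µM replicate 1 was the shallowest library, and 57.7% of the entries of 0.1 µM replicate 3 were reads that did not align uniquely, against 26.9% to 45.4% in the other 15 libraries.

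**Figure D1:**
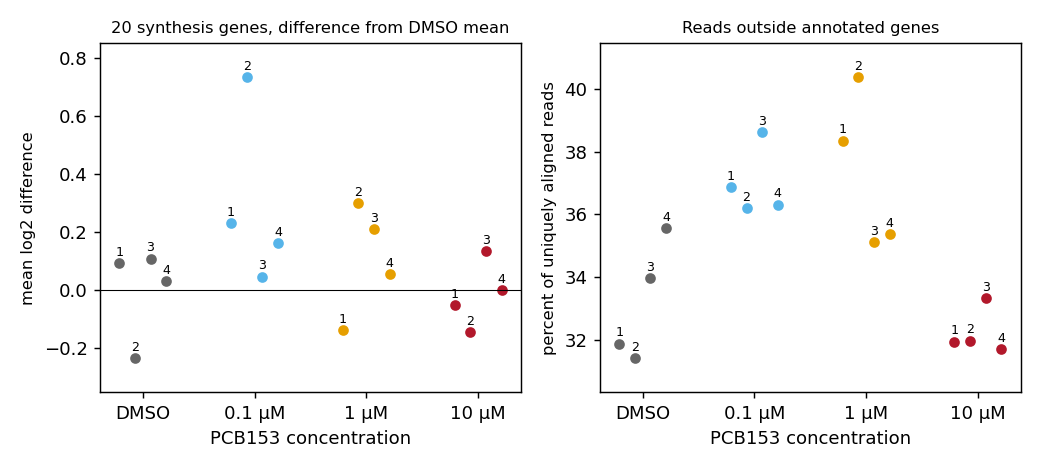
Mean log2 difference of the 20 synthesis enzymes from their DMSO means (left) and reads outside annotated genes as a percent of uniquely aligned reads (right), by PCB153 concentration. Points are single libraries with their replicate number, and 0.1 µM replicate 2 stands highest at 0.73 while the 10 µM libraries reach at most 0.13.

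The members that rose against DMSO were few, and not the same at each concentration. A gene is said to have risen or fallen where edgeR's quasi-likelihood F-test gave an adjusted p (Benjamini-Hochberg over all 21372 genes) under 0.05. At 0.1 µM, 4 of 27 members rose (ldlra, ldlrb, idi1 and ebp) and 0 fell, where 3.43% of all genes tested were called. At 1 µM, 3 rose (ldlra, ldlrb and idi1) and 0 fell, where the background was 12.4%. At 10 µM, 2 rose (ldlra and insig1) and 0 fell, where it was 18.3%. The members' share was therefore 14.8% at 0.1 µM, 11.1% at 1 µM and 7.41% at 10 µM, above the background at 0.1 µM, near it at 1 µM and below it at 10 µM. In the lower direction, 0 members were called at each concentration. There edgeR gave an unadjusted p under 0.05 to 0, 1 and 0 members at 0.1, 1 and 10 µM. Of all genes, 7.82%, 12.8% and 15.5% had such a p in that direction. In the higher direction, 14, 5 and 2 members had it, and in either direction 14, 6 and 2. In either direction, 3678 of all 21372 genes had it at 0.1 µM and 5667 at 1 µM. At 10 µM at least the 18.3% of genes that were called had it, against 7.41% of the members. Without 0.1 µM replicate 2, 8 members and 3318 of all genes had it at 0.1 µM in either direction.

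The fitted changes of the members leaned upward at the lowest concentration. The median log2 fold change over the 27 members was 0.36 at 0.1 µM, 0.16 at 1 µM and 0.06 at 10 µM, against 0.00, -0.01 and -0.01 over all genes tested. At 0.1 µM, 22 of the 27 had a positive fold change, at 1 µM 18 and at 10 µM 18, where 50.4%, 48.7% and 48.7% of all genes did. The 20 enzymes alone had medians of 0.41, 0.14 and 0.01. The lean at 0.1 µM rested in large part on 1 library. Without 0.1 µM replicate 2 the medians there were 0.19 over the members and 0.20 over the enzymes, with 20 of the 27 positive. Without the outlying pair both were 0.11, with 18 of the 27 positive. Both omissions remove libraries picked by these same enzyme values, so a smaller lean without them was built into the choice. All 3 comparisons share the DMSO libraries, including replicate 2 with its low enzyme counts. At 0.1 µM the 4 libraries of 6 members lay above all 4 DMSO libraries (acat2, hmgcs1, idi1, ebp, ldlra and ldlrb), which held for 5.03% of all genes. This was so for 3 members at 1 µM (hmgcs1, idi1 and ldlra, background 9.75%) and for 3 at 10 µM (mbtps1, insig1 and ldlra, background 13.2%). At 10 µM dhcr7 lay below all DMSO libraries, as did 11.7% of genes, with an adjusted p of 0.348 by edgeR.

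**Figure D2:**
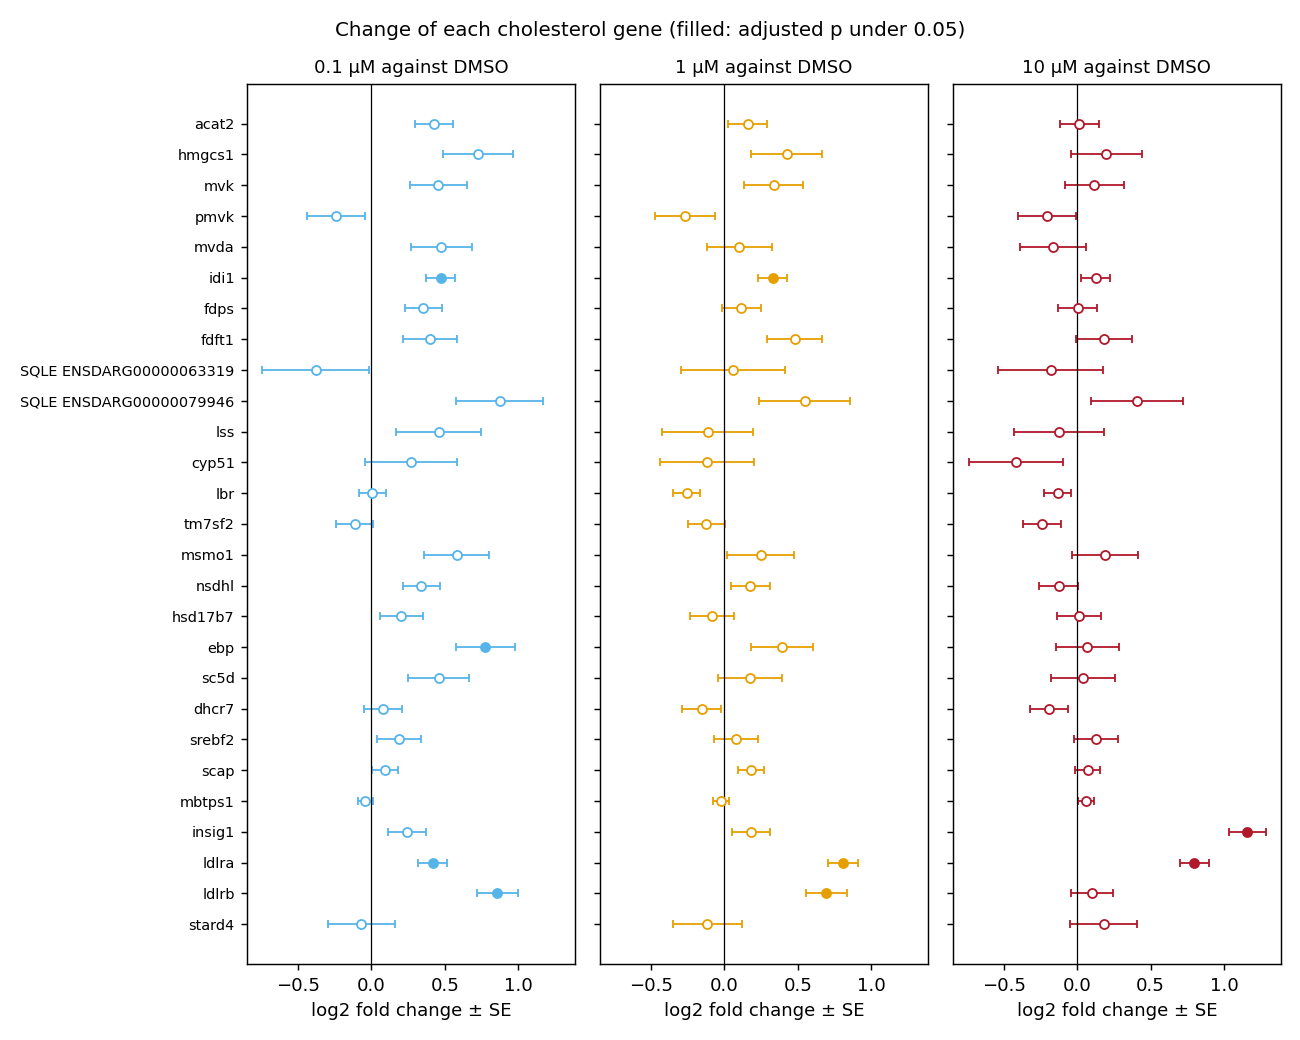
Fitted log2 fold change against DMSO (horizontal axis, bars are ± SE from edgeR, 4 libraries per group) of the 27 genes, ordered by role, at 0.1, 1 and 10 µM. Filled points passed an adjusted p of 0.05, which 4, 3 and 2 genes did, and most open points at 0.1 µM lie right of 0.

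The LDL receptor, which takes up LDL particles and with them cholesterol, is encoded by the duplicates ldlra and ldlrb, and both rose at 0.1 and 1 µM while ldlra rose at 10 µM as well. The level of ldlra was 75.3, 58.8, 73.6 and 73.6 CPM in the DMSO libraries and 111, 89.4, 86.4 and 89.2 CPM at 0.1 µM. At 1 µM it was 136, 110, 134 and 115 CPM, and at 10 µM it was 129, 136, 112 and 112 CPM. Every exposed library was above every control, and the 1 and 10 µM libraries overlapped each other. The log2 fold change of ldlra was 0.42 ± 0.10 (SE) at 0.1 µM, 0.81 ± 0.10 at 1 µM and 0.80 ± 0.10 at 10 µM, with edgeR adjusted p of 0.0247, 3.1e-05 and 2.56e-05. Directly compared, 10 µM was above 0.1 µM by 0.38 ± 0.10 (edgeR adjusted p = 0.0109), while 10 µM and 1 µM differed by -0.01 ± 0.10 (adjusted p = 0.965). With the covariate in the fit, the 10 against 0.1 µM difference was 0.36 with an adjusted p of 0.25.

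The calls of ldlra at 1 and 10 µM held in all 26 alternative settings tried, and that at 0.1 µM in 21. At 0.1 µM its adjusted p by edgeR was 0.0634 without DMSO replicate 2, 0.0525 without DMSO replicate 3 and 0.07 without 0.1 µM replicate 1. It was 0.197 with the covariate and 0.0763 without the pair of outlying libraries, and the log2 fold change stayed between 0.33 and 0.46 throughout.

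The duplicate ldlrb rose at the lower concentrations and was near the control level at the highest. Its level was 24, 25.6, 23 and 22 CPM in DMSO, and 37.0, 52.2, 43.9 and 38.4 CPM at 0.1 µM. At 1 µM the libraries had 25.1, 43.5, 42.4 and 40.3 CPM, and at 10 µM they had 25.2, 24.3, 27.2 and 24.8 CPM. All 0.1 µM libraries and all 1 µM libraries but replicate 1, the shallowest, were above every DMSO and every 10 µM library. The log2 fold change against DMSO was 0.86 ± 0.14 at 0.1 µM (edgeR adjusted p = 0.00196), 0.70 ± 0.14 at 1 µM (0.00373) and 0.10 ± 0.14 at 10 µM (0.685). Between concentrations, ldlrb fell by 0.76 ± 0.14 on the log2 scale from 0.1 to 10 µM (edgeR adjusted p = 0.00144) and by 0.60 ± 0.14 from 1 to 10 µM (adjusted p = 0.0219). From 0.1 to 1 µM the difference was -0.16 ± 0.13 (adjusted p = 0.612).

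Both rises of ldlrb against DMSO held in all 26 settings. Between groups, its level moved with the share of reads outside genes, which was also high at 0.1 and 1 µM and low at 10 µM. The shallowest library, 1 µM replicate 1, had a share of 38.4% with 25.1 CPM of ldlrb. The other libraries at 0.1 and 1 µM had shares of 35.1% to 40.4% with 37.0 to 52.2 CPM. The cause of the ldlrb pattern was not tested. With that share as a covariate the rises were 0.94 ± 0.19 at 0.1 µM and 0.78 ± 0.19 at 1 µM (edgeR adjusted p of 0.0277 and 0.0314). The falls to 10 µM kept their size under the covariate, at -0.86 from 0.1 µM and -0.70 from 1 µM, but had adjusted p of 0.0606 and 0.272. The fall from 1 to 10 µM was also lost, with adjusted p of 0.053 to 0.0727, on leaving out any of 1 µM replicates 2, 3 and 4 or 10 µM replicates 1, 2 and 4.

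The proportion of the duplicates within a library was also described, and its mean was highest at 10 µM. The log2 ratio of ldlra to ldlrb counts was 1.56 ± 0.25 in the controls (mean ± SD of 4 libraries), 1.14 ± 0.35 at 0.1 µM, 1.73 ± 0.49 at 1 µM and 2.26 ± 0.19 at 10 µM. The lowest 10 µM library had 2.04, above the highest DMSO library (1.74) and the highest 0.1 µM library (1.58). A two-sided exact permutation test gave p = 0.0286 for 10 µM against DMSO and for 10 against 0.1 µM, the smallest that 4 against 4 libraries allow, and 0.0858 when adjusted over the 6 pairs of groups. The ratio was chosen after its values were seen, so these p-values are description only.

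**Figure D3:**
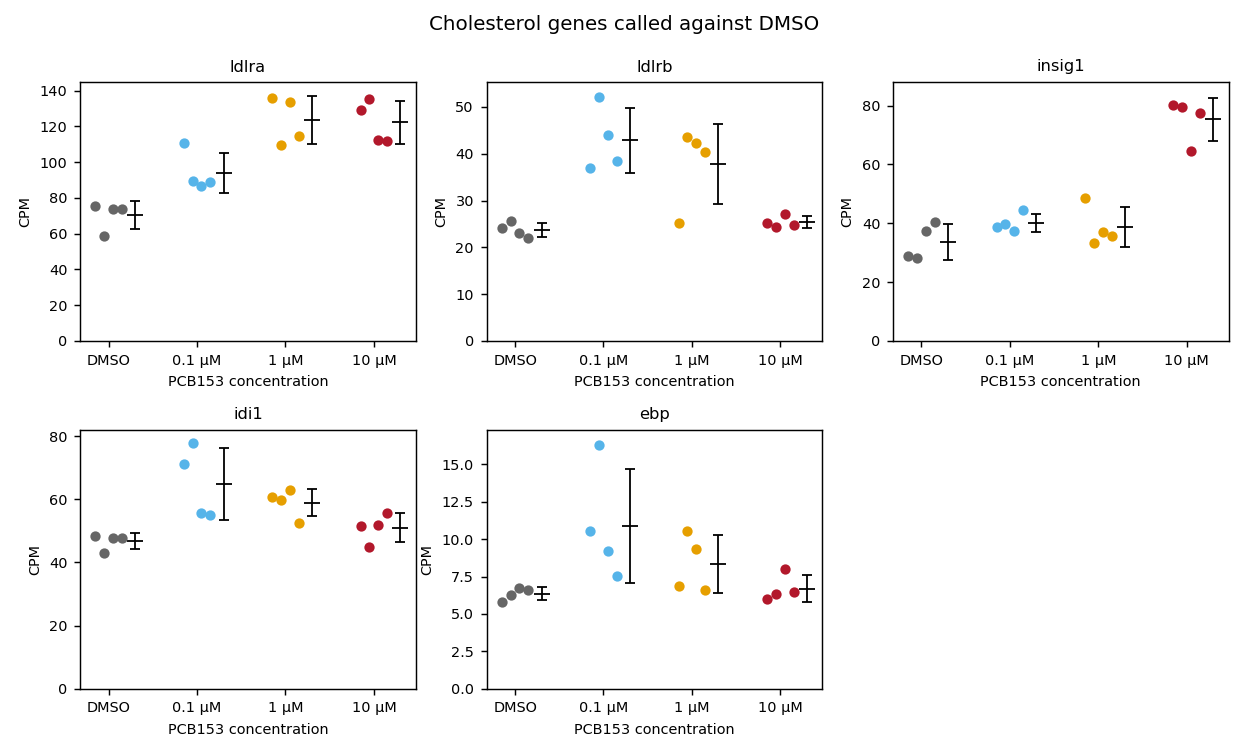
CPM (vertical axis, from 0) of the 5 genes that rose against DMSO at 1 or more concentrations, by PCB153 concentration. Points are single libraries and bars are mean ± SD of 4, and the 10 µM libraries stand apart in insig1 (64.5 to 80.1) and lie with DMSO in ldlrb.

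The regulator insig1, whose product retains SCAP in the endoplasmic reticulum, rose at 10 µM and had the largest called change among the members. It was at 28.8, 28.2, 37.4 and 40.5 CPM in DMSO and at 38.7, 39.6, 37.2 and 44.4 CPM at 0.1 µM. The 1 µM libraries had 48.5, 33.3, 37.1 and 35.8 CPM. The 10 µM libraries had 80.1, 79.4, 64.5 and 77.5 CPM, all above the 12 others. Pair by pair, 13.2%, 11.7% and 6.91% of all genes lay higher without overlap at 10 µM than in DMSO, 0.1 µM and 1 µM. The share of genes above the 12 others at once was not computed. The log2 fold change was 1.16 ± 0.12 at 10 µM (edgeR adjusted p = 1.15e-05), 0.24 ± 0.13 at 0.1 µM (0.353) and 0.18 ± 0.13 at 1 µM (0.414). Against the lower concentrations directly, 10 µM was higher by 0.91 ± 0.12 than 0.1 µM (edgeR adjusted p = 0.000183) and by 0.98 ± 0.13 than 1 µM (0.000531). All 3 calls held in the 26 settings, including the covariate.

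The other regulators had no call in any of the 6 pairwise comparisons. The transcription factor gene srebf2 averaged 73.2 CPM in DMSO, 83.5 at 0.1 µM, 76.7 at 1 µM and 79.9 at 10 µM, with log2 fold changes of 0.19, 0.08 and 0.13. Its escort scap had log2 fold changes of 0.09, 0.18 and 0.07. The protease gene mbtps1 varied least among the members, with a within-group SD of 0.06 (log2) and log2 fold changes between -0.04 and 0.06. Its 10 µM libraries (68.7 to 73.6 CPM) lay narrowly above those of DMSO (65.2 to 68.6 CPM), with an adjusted p of 0.46 by edgeR. The sterol carrier stard4 ranged from 3.78 to 8.51 CPM over the 16 libraries, with overlapping groups.

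Among the 7 members that make isoprenoid units, idi1 rose against DMSO. The median log2 fold change of the 7 was 0.46 at 0.1 µM, 0.16 at 1 µM and 0.01 at 10 µM. The isomerase gene idi1 had 48.5, 43.1, 47.8 and 47.8 CPM in DMSO, and 71.1, 77.9, 55.5 and 55.1 CPM at 0.1 µM. It had 60.6, 59.9, 62.8 and 52.6 CPM at 1 µM and 51.6, 44.9, 51.9 and 55.6 CPM at 10 µM. All libraries at 0.1 and 1 µM were above all controls, while those at 10 µM overlapped them. The log2 fold change was 0.47 ± 0.10 at 0.1 µM (edgeR adjusted p = 0.0107), 0.33 ± 0.10 at 1 µM (0.0365) and 0.13 ± 0.10 at 10 µM (0.425). From 0.1 to 10 µM it fell by 0.35 ± 0.10 on the log2 scale (adjusted p = 0.0179).

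These idi1 calls were lost in some settings. With the covariate the changes kept their size but had larger SE. They were 0.47 ± 0.14 at 0.1 µM, 0.33 ± 0.14 at 1 µM and -0.35 ± 0.15 from 0.1 to 10 µM. Their edgeR adjusted p with the covariate were 0.139, 0.218 and 0.253. Without the pair of outlying libraries the rise at 0.1 µM had an edgeR adjusted p of 0.0627. The rise at 1 µM was lost in 11 of 26 settings, among them the omission of any single control or of 1 µM replicate 1, 2 or 3, with adjusted p from 0.0574 to 0.104. The fall from 0.1 to 10 µM was lost on omitting 0.1 µM replicate 1 (adjusted p = 0.051), 0.1 µM replicate 2 (0.0558) or 10 µM replicate 2 (0.0654).

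The thiolase gene acat2, which starts the pathway, and mvda, the decarboxylase, were called between 0.1 and 10 µM but, in the main fit, not against DMSO. The level of acat2 was 17.5, 17.6, 19.4 and 16.9 CPM in DMSO, and 22.4, 32.4, 21.4 and 19.8 CPM at 0.1 µM. It was 19.9, 20.3, 21.6 and 18.1 CPM at 1 µM, and 16.7, 16.8, 16.5 and 22.1 CPM at 10 µM. The 0.1 µM libraries were all above DMSO, and 10 µM replicate 4 was the exception among otherwise low 10 µM libraries. At 0.1 µM the log2 fold change of acat2 against DMSO was 0.43 ± 0.13 (edgeR adjusted p = 0.0807). DESeq2 called this rise (adjusted p = 0.0431), as did edgeR without 10 µM replicate 4 (0.0486). Without 0.1 µM replicate 4 the rise of acat2 against DMSO was 0.52 (edgeR adjusted p = 0.022). From 0.1 to 10 µM acat2 fell by 0.41 ± 0.13 on the log2 scale (edgeR adjusted p = 0.0308). The level of mvda was 3.84, 3.76, 4.87 and 3.14 CPM in DMSO, 4.24, 7.44, 5.51 and 4.46 CPM at 0.1 µM, 3.80, 5.16, 3.76 and 3.98 CPM at 1 µM and 4.49, 1.88, 4.00 and 3.37 CPM at 10 µM. It fell by 0.64 ± 0.22 from 0.1 to 10 µM (adjusted p = 0.039), with overlapping libraries.

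Both calls were lost on leaving out single libraries, and both falls were smaller without 0.1 µM replicate 2. Without 0.1 µM replicate 2 the log2 change from 0.1 to 10 µM was -0.23 for acat2 (edgeR adjusted p = 0.114) and -0.44 for mvda (0.158). The call of acat2 was also lost on omitting any of 10 µM replicates 1, 2 and 3, with adjusted p from 0.0764 to 0.0896. Its change was then -0.38, -0.38 and -0.37, near the -0.41 of the main fit. The call of mvda was lost without 0.1 µM replicate 3 or 10 µM replicate 2 or 4 (0.0732 to 0.134). Its change was then -0.64, -0.45 and -0.63, against -0.64 in the main fit. With the covariate both calls were lost (adjusted p of 0.209 and 0.461), at changes of -0.51 ± 0.20 for acat2 and -0.50 ± 0.33 for mvda.

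The genes hmgcs1, mvk, pmvk and fdps of the same steps were not called in any pairwise comparison. The synthase gene hmgcs1 had 52.9 to 58.1 CPM in 3 of the 0.1 µM libraries and 117 CPM in replicate 2, against 39.8 to 44.7 CPM in DMSO, with a log2 fold change of 0.73 ± 0.24 (edgeR adjusted p = 0.131). DESeq2 and non-robust edgeR called this rise (adjusted p of 0.0492 and 0.0447). Its 1 µM libraries (45.1 to 66.5 CPM) were also all above DMSO, with a log2 fold change of 0.43 ± 0.24 (adjusted p = 0.291). This rise at 1 µM was called by edgeR without 0.1 µM replicate 2 (adjusted p = 0.0152), with only the libraries compared (0.029) and without the outlying pair (0.0499). The kinases mvk and pmvk had log2 fold changes at 0.1 µM of 0.46 ± 0.19 and -0.24 ± 0.20, and fdps, which makes farnesyl diphosphate, had 0.36 ± 0.13. From 0.1 to 10 µM fdps was called lower in 5 of 26 settings, among them the omission of 0.1 µM replicate 3 or 4 (edgeR adjusted p of 0.0299 and 0.0296).

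The 4 genes from farnesyl diphosphate to lanosterol had no call in any pairwise comparison. Their median log2 fold change was 0.43 at 0.1 µM, 0.27 at 1 µM and 0.03 at 10 µM. The squalene synthase gene fdft1 had a log2 fold change of 0.40, 0.48 and 0.19 at the rising concentrations, and without 1 µM replicate 1 its change at 1 µM was 0.64 (edgeR adjusted p = 0.0129, against 0.098 with it). The epoxidase gene SQLE ENSDARG00000079946 had 3.96 to 7.17 CPM in DMSO and 9.91, 18.4, 6.12 and 8.34 CPM at 0.1 µM. Its log2 fold change there was 0.88 ± 0.30, the highest of the 27 at that concentration, with an edgeR adjusted p of 0.139 and a DESeq2 adjusted p of 0.0229. Its duplicate SQLE ENSDARG00000063319 was at 1.21 CPM or less in all libraries and had -0.38 ± 0.36. Reads that aligned to both duplicates would be among those not uniquely aligned, which are left out of these counts. The cyclase gene lss had 13.2 CPM in 0.1 µM replicate 2 and between 3.42 and 6.52 CPM in the other 15 libraries.

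Of the 9 genes that convert lanosterol to cholesterol, ebp rose at 0.1 µM and 0 were called at 1 or 10 µM. For these 2 concentrations the unadjusted edgeR p was under 0.05 for lbr alone, at 1 µM. The isomerase gene ebp had 5.79, 6.29, 6.73 and 6.60 CPM in DMSO and 10.5, 16.3, 9.19 and 7.56 CPM at 0.1 µM. It had 6.84, 10.6, 9.32 and 6.58 CPM at 1 µM and 6.03, 6.33, 7.99 and 6.44 CPM at 10 µM. All 0.1 µM libraries were above all controls, replicate 2 furthest, and the 1 µM libraries fell into a high and a low pair. The log2 fold change was 0.78 ± 0.20 at 0.1 µM (edgeR adjusted p = 0.0407), 0.40 ± 0.21 at 1 µM (0.251) and 0.07 ± 0.22 at 10 µM (0.861). From 0.1 to 10 µM ebp fell by 0.71 ± 0.20 on the log2 scale (adjusted p = 0.0205).

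The rise of ebp was lost in 15 of 26 settings. Its edgeR adjusted p was 0.0735 without 0.1 µM replicate 2, where the log2 fold change was 0.51, 0.142 without the outlying pair (0.50) and 0.0842 without 0.1 µM replicate 1. Leaving out any DMSO library gave 0.0888 to 0.111, at log2 fold changes of 0.74 to 0.81. Leaving out 1 µM replicate 3 or 10 µM replicates 1, 2 or 4 gave 0.0521 to 0.0588, at 0.77 to 0.78. These sizes are near that of the main fit. With the covariate the change was 0.65 ± 0.27 (edgeR adjusted p = 0.381). The fall from 0.1 to 10 µM was -0.44 without 0.1 µM replicate 2 (adjusted p = 0.0545), and it was lost without 10 µM replicate 1 (0.064) or 2 (0.0595) too.

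The dehydrogenase gene nsdhl, which acts in removing the methyl groups at carbon 4 of the sterol, was called in 1 pairwise comparison, that of 0.1 and 10 µM. It had 9.41, 7.58, 10.4 and 9.03 CPM in DMSO and 11.7, 14.9, 10.3 and 9.24 CPM at 0.1 µM. It had 8.87, 11.2, 10.4 and 10.4 CPM at 1 µM and 8.37, 8.29, 9.13 and 7.59 CPM at 10 µM. All 10 µM libraries were below all 0.1 µM libraries, and both overlapped DMSO. The log2 change from 0.1 to 10 µM was -0.47 ± 0.13 (edgeR adjusted p = 0.0137), and it was -0.32 without 0.1 µM replicate 2 (0.0748). Against DMSO nsdhl was called at 0.1 µM without 0.1 µM replicate 4 (log2 fold change 0.44, adjusted p = 0.0418).

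The remaining late genes had no call in any pairwise comparison, and several varied widely within groups. The demethylase gene cyp51 had 55.7, 22.4, 58.0 and 58.4 CPM in DMSO and 47.3, 79.6, 35.1 and 71.6 CPM at 0.1 µM. At 1 µM it had 28.3, 54.0, 50.2 and 45.0 CPM and at 10 µM 39.8, 32.9, 39.1 and 33.8 CPM. DMSO replicate 2, 0.1 µM replicate 3 and 1 µM replicate 1 were low in cyp51, which had the widest spread of the members, with a within-group SD of 0.49 (log2). The oxygenase gene msmo1 was likewise lowest of its group in these 3 libraries, at 18.9, 25 and 27.5 CPM, and its log2 fold change at 0.1 µM was 0.58 ± 0.22 (edgeR adjusted p = 0.189). Without 0.1 µM replicate 3 it was 0.76, with an adjusted p of 0.0295, and the change of msmo1 from 0.1 to 10 µM was -0.58 (0.0314). The reductase genes lbr and tm7sf2 had log2 fold changes between -0.26 and 0.01 against DMSO at the 3 concentrations. The lowest was that of lbr at 1 µM, -0.26 ± 0.09 (edgeR adjusted p = 0.0762), with 35.5 to 44.9 CPM against 42.1 to 51.8 CPM in DMSO. It was called lower with only the libraries compared (adjusted p = 0.0319), without 0.1 µM replicate 2 (0.0352), without 1 µM replicate 1 (0.04) and without 1 µM replicate 1 and 0.1 µM replicate 3 together (0.046). The ketosteroid reductase gene hsd17b7 had 5.70 to 11.3 CPM over the 16 libraries and log2 fold changes of 0.21, -0.08 and 0.01. The desaturase gene sc5d had 7.24 to 20.7 CPM, highest in 0.1 µM replicate 2 and lowest in DMSO replicate 2, with log2 fold changes of 0.46, 0.18 and 0.04. The last enzyme, dhcr7, had 31.9 to 35.9 CPM at 10 µM and 36.9 to 46 CPM in DMSO, with a log2 fold change of -0.19 ± 0.13. Over all 27 members the median within-group SD was 0.23 (log2), against 0.15 over all genes tested.

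**Figure D4:**
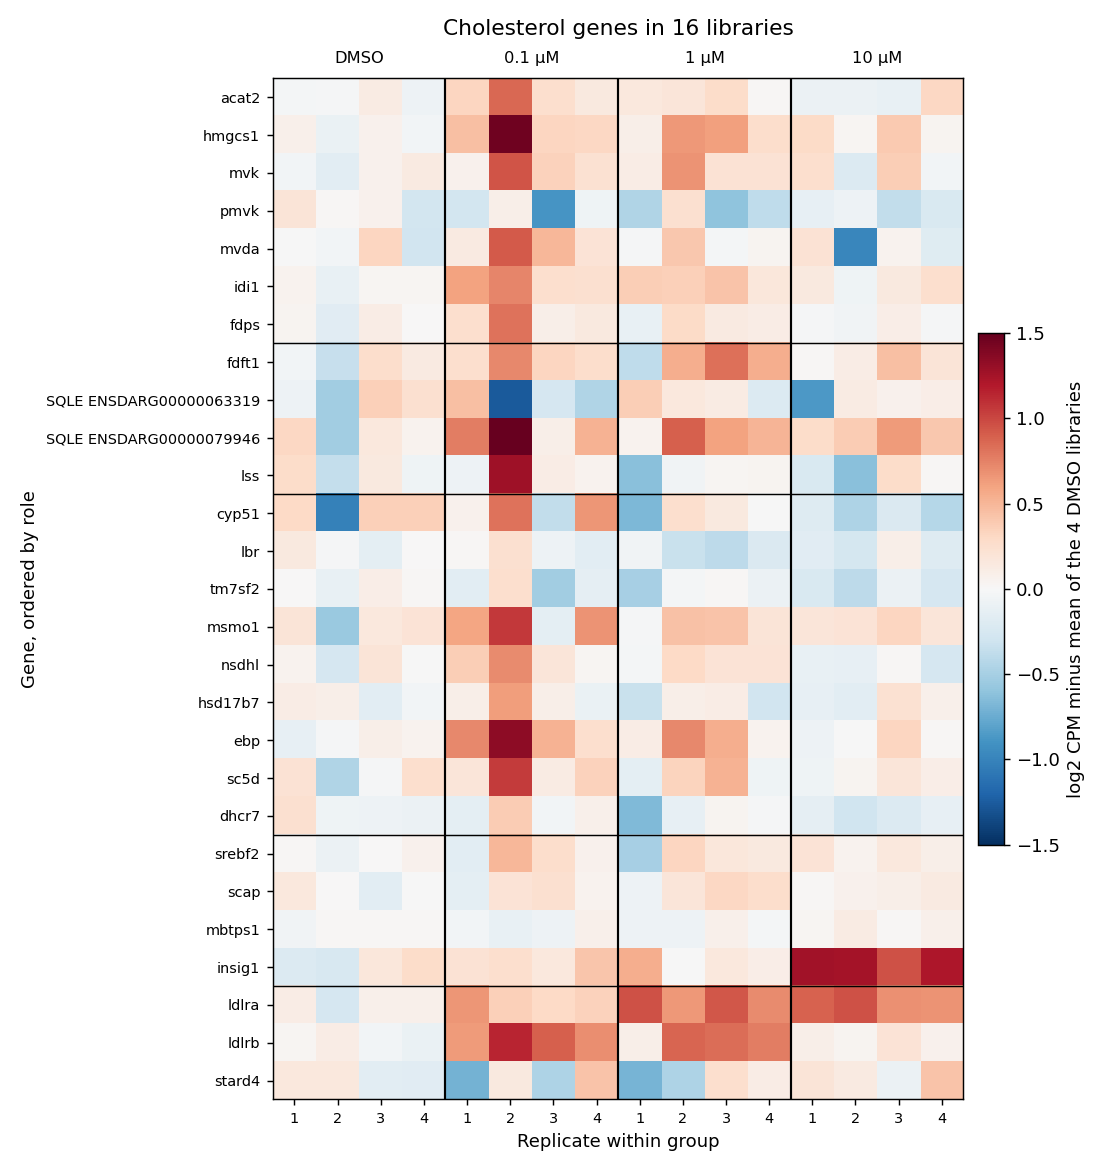
Log2 CPM of each of the 27 genes (rows, by role) minus its mean over the 4 DMSO libraries, in the 16 libraries (columns, by group and replicate). Red is higher and blue lower, and the colours end at 1.5, which SQLE ENSDARG00000079946 exceeds in 0.1 µM replicate 2 with 1.66. The column of that library is red for most enzymes, while insig1 is red at 10 µM and ldlra at all 3 concentrations.

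Compared with each other, the exposed groups differed mainly between 0.1 and 10 µM. There, 8 members were called, where 21.4% of all genes were. Of these, 2 were higher at 10 µM (insig1 and ldlra, background 10.8%) and 6 lower (ldlrb, nsdhl, idi1, ebp, acat2 and mvda, background 10.6%). The libraries did not overlap for insig1 and ldlra, as for 11.7% of genes higher at 10 µM, and for ldlrb and nsdhl, as for 9.49% of genes lower at 10 µM. The median log2 change of the 27 from 0.1 to 10 µM was -0.34, and -0.01 over all genes. Without 0.1 µM replicate 2 the count of 8 became 3, and with the covariate it became 1, insig1. Between 1 and 10 µM, insig1 was higher and ldlrb lower at 10 µM, where 6.15% of all genes were called. Between 0.1 and 1 µM edgeR called 0 members, where 0.973% of genes were called. Unadjusted p under 0.05 was given to 1 member in each direction there, where 7.54% of genes were higher and 8.19% lower by that measure, and DESeq2 called 1, ldlra, whose edgeR log2 difference was 0.39 ± 0.10 with an adjusted p of 0.0624. That difference was called by edgeR without DMSO replicate 2 (0.0409), 0.1 µM replicate 1 (0.0171) or 1 µM replicate 2 (0.036). Over the 4 groups at once, 7 members differed (acat2, idi1, nsdhl, ebp, insig1, ldlra and ldlrb). This is 25.9% of the members, near the 25.8% of all genes. In that test the call of acat2 was lost in 18 of 25 alternatives and that of nsdhl in 11. Together, 8 members were called in at least 1 of the 6 pairwise comparisons and 19 in none, with log2 fold changes of those 19 against DMSO between -0.42 and 0.88.

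Other genes of cholesterol handling were counted in 5 lists with 81 genes tested. The lists were drawn up with earlier results of these data known, so their shares are description only. In the list of lipoprotein receptors and uptake, 3 of 23 rose at 0.1 µM, 3 at 1 µM and 4 at 10 µM, and 0 fell. These are 13% of the list at 0.1 and 1 µM and 17.4% at 10 µM, above the background of 3.43% at 0.1 µM and near those of 12.4% and 18.3% at 1 and 10 µM. MYLIP ENSDARG00000055118, whose mammalian counterpart is a ubiquitin ligase that marks the LDL receptor for degradation, had 18.2, 22.3, 19.3 and 22.6 CPM in DMSO and 31.8 to 41.0 CPM in the 12 exposed libraries. It rose by 0.70 ± 0.07, 0.91 ± 0.07 and 0.93 ± 0.07 on the log2 scale at 0.1, 1 and 10 µM (edgeR adjusted p of 3.09e-06, 2.47e-08 and 8.54e-09). DAB2, an adaptor that links the LDL receptor to clathrin-coated pits in mammals, rose by 0.35 ± 0.06, 0.63 ± 0.06 and 0.58 ± 0.06. The list's other MYLIP identifier and its other DAB2 gene, written dab2, were not among the genes called at any concentration. NPC1, which exports cholesterol from lysosomes, rose by 0.22 ± 0.05, 0.22 ± 0.05 and 0.19 ± 0.05. The high-density lipoprotein receptor gene SCARB1 rose at 10 µM by 0.70 ± 0.16 (edgeR adjusted p = 0.00778), with 46.7 to 59.0 CPM against 26.4 to 38.8 CPM in DMSO.

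Among 13 further genes of sterol and isoprenoid synthesis, 2 rose at each concentration, both copies of POR, and 0, 1 and 1 fell. These calls are 15.4%, 23.1% and 23.1% of the list, against 3.43%, 12.4% and 18.3% of all genes. POR encodes the reductase that hands electrons to cytochrome P450 enzymes, CYP51 among them. POR ENSDARG00000059035 had 101 to 107 CPM in DMSO, 130 to 149 CPM at 0.1 µM, 154 to 195 CPM at 1 µM and 174 to 190 CPM at 10 µM. Its log2 fold changes were 0.45 ± 0.06, 0.74 ± 0.06 and 0.81 ± 0.06. ACSS2 fell at 1 µM by 0.20 ± 0.06 and PGRMC2 at 10 µM by 0.24 ± 0.08 on the log2 scale. In the list of sterol sensing and protein turnover, 0 of 11 were called at 0.1 and 1 µM, where the smallest unadjusted edgeR p were 0.0177 (MBTPS2, log2 fold change -0.22) and 0.016 (MARCHF6, 0.14) and 3 genes were under 0.05 at each. At 10 µM, 2 fell, ERLIN1 by 0.35 ± 0.07 and RNF145 by 0.34 ± 0.08, and 0 rose. This is 18.2% of the list, near the 18.3% of all genes.

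Of 16 genes of efflux and esterification tested, 0 were called at 0.1 µM, where SOAT1 had an unadjusted edgeR p of 0.00783, and 3 rose at 1 µM and 3 at 10 µM. This is 18.8% of the list at both, against backgrounds of 12.4% and 18.3%. The cholesterol exporter ABCA1 rose by 0.50 ± 0.11 at 1 µM and 0.51 ± 0.11 at 10 µM, from 222 to 231 CPM in DMSO to 296 to 345 and 276 to 369 CPM. SOAT1, which esterifies cholesterol, rose at 1 µM by 0.51 ± 0.14, as did abca1b by 0.43 ± 0.11. At 10 µM apoeb and apoea rose by 0.42 ± 0.09 and 0.26 ± 0.08. Of 18 genes of bile acid and steroid hormone synthesis, 0 were called at 0.1 µM, where cyp27a3 had an unadjusted edgeR p of 0.009. At 1 µM cyp27a3 rose by 0.45 ± 0.11 and CYP7B1 fell by 0.38 ± 0.09 on the log2 scale. At 10 µM cyp27a3 and cyp27a1.1 rose (0.40 ± 0.11 and 0.24 ± 0.07) and CYP8B1 ENSDARG00000053068 fell by 0.46 ± 0.13. The share of this list called was 11.1% at 1 µM and 16.7% at 10 µM, near the backgrounds of 12.4% and 18.3%.

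**Figure D5:**
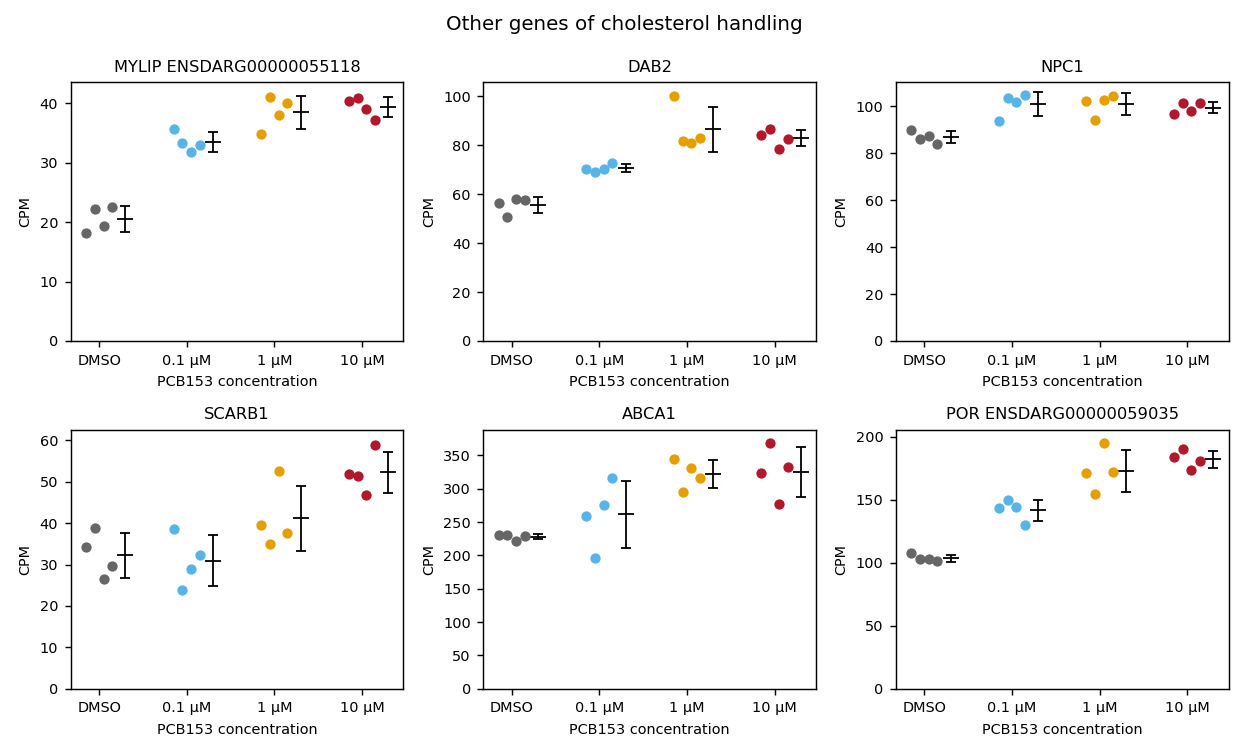
CPM (vertical axis, from 0) of 6 further genes of cholesterol handling by PCB153 concentration. Points are single libraries and bars are mean ± SD of 4. MYLIP ENSDARG00000055118, DAB2, NPC1 and POR ENSDARG00000059035 are higher in all exposed libraries than in any control, and SCARB1 and ABCA1 are not.

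Markers of tissues that handle cholesterol moved in part with the groups. None of the markers counted was at 0 in any library. Of all genes tested, 12.4% were called at 1 µM and 18.3% at 10 µM. Of 14 liver markers, 0 were called at 0.1 µM, where edgeR gave hpxb an unadjusted p of 0.00232. At 1 µM 6 fell, and at 10 µM 5 fell and 2 rose, which is 42.9% and 50% of the list. The summed level of the liver markers was 4283 to 5037 CPM in DMSO and 4443 to 4877 CPM at 0.1 µM. It was 3740 to 4574 CPM at 1 µM and 3774 to 4280 CPM at 10 µM. Of 11 neuron markers 6 rose at 10 µM, which is 54.5% of the list. The 11 summed to 1395 to 1530 CPM in DMSO and 1615 to 1727 CPM at 10 µM. The 10 exocrine pancreas markers summed to 2816 to 4834 CPM at 0.1 µM and 6354 to 7720 CPM at 10 µM, with 3674 to 7618 CPM in DMSO. In 0.1 µM replicate 2, where the enzymes stood highest, the pancreas markers (2816 CPM) and 5 myelin markers (201 CPM) were lowest of all 16 libraries. Of 10 intestine markers 1 rose at 1 µM and 3 at 10 µM, which is 10% and 30% of the list. The 10 summed to 1462 to 1819 CPM in DMSO and 1833 to 1912 CPM at 10 µM. The 6 genes of lipoprotein assembly in the yolk and gut had overlapping sums in all groups. Of these 6, 1 rose and 1 fell at 1 µM (33.3%), and 1 rose and 2 fell at 10 µM (50%). Between 0.1 and 10 µM, where 21.4% of all genes were called, 90.9% of the neuron and 60% of the pancreas markers were called, all higher at 10 µM. Of the 6 lipoprotein assembly genes 66.7% were called and of the liver markers 42.9%, both mostly lower at 10 µM. For the intestine and myelin markers the share was 20%. The part of these tissues in the members' changes was not tested.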

How the data were processed

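Strand-specific total RNA of whole larvae was sequenced after removal of ribosomal RNA (Ribo-Zero Gold), per the labels' protocols. The deposited files hold raw HTSeq read counts per Ensembl gene, with no normalization. Trimmomatic, HTSeq, edgeR and the build GRCz10 are named without versions in the submitters' processing notes, and the files were named for reverse-strand counting in union mode. The aligner is "not given in the sources used here", nor is the annotation, and coordinates and sequences are left out. The 5 summary lines per file (reads without a feature, ambiguous or not uniquely aligned) stayed out of library sizes and tests. Of the 24 pairs of libraries within a group, 0 had counts that agreed within sampling noise.

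The tests used edgeR 4.0.16 under R 4.3.3: filterByExpr by group, TMM scaling and the robust quasi-likelihood F-test, with the 16 libraries fitted together by group alone, adjusted over 21372 genes (threshold 0.05). The SE is the fitted log2 change over the root of its F statistic. Log2 CPM uses a prior count of 2. The script was run on simulated counts, drawn for each gene separately and without outlying libraries. Such a run checks the code and not the calls made here. Depth limits low members most, since the lowest had 4 reads in a library. Alternatives were DESeq2 1.42.0, its size factors in edgeR, 2 other filters on low counts, non-robust estimation, the libraries of the compared groups only, the share of reads outside genes as covariate, a replicate block, and leaving out each library or pairs of doubted libraries.

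The member names were given, and members, lists and tests were chosen with earlier results of these data known. Symbols were matched with the name tables supplied, and 1 of the 30 names, insig2, was not analysed, and 2 are not reported here. Every member reported is described, and those called in any comparison are described by library. Of the other lists, 16 names matched no gene, and up to 4 genes a list were eligible to be named, by smallest p. The genes apoea and MBTPS2 were named to complete a count, after their values were seen.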

Additional observations from a re-analysis of the deposited data

Results flagged for a closer look

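Of 108 combinations of a member and a group, 15 held a library whose gap to its nearest neighbour, divided by the range of the 4 log2 CPM values, exceeded Dixon's 95% critical value. Chance flags about 1 in 20 such groups.

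DMSO replicate 2 was the low library in cyp51 (22.4 CPM against 55.7 to 58.4 in the others, gap ratio 0.95), msmo1 (18.9 against 31.1 to 32.0, 0.949), ldlra (58.8 against 73.6 to 75.3, 0.906) and idi1 (43.1 against 47.8 to 48.5, 0.878). DMSO replicate 1 was high in dhcr7 (46 against 36.9 to 37.2, 0.96) and low in mbtps1 (65.2 against 68.2 to 68.6, 0.878).

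At 0.1 µM, replicate 2 was high in hmgcs1 (117 CPM against 52.9 to 58.1, gap ratio 0.881), lss (13.2 against 5.07 to 5.82, 0.857) and fdft1 (7.51 against 5.37 to 5.67, 0.84), and replicate 1 in ldlra (111 against 86.4 to 89.4, 0.864). At 1 µM, replicate 1 was low in ldlrb (25.1 against 40.3 to 43.5, 0.863) and lss (3.42 against 5.16 to 5.54, 0.85). At 10 µM, replicate 4 was high in acat2 (22.1 against 16.5 to 16.8, 0.943), and the low libraries were replicate 1 in SQLE ENSDARG00000063319 (0.40 against 0.90 to 0.94, 0.941) and replicate 3 in insig1 (64.5 against 77.5 to 80.1, 0.85).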

How the results depend on the processing

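Across 26 alternatives no called member reversed its direction, and of 163 results of a member in a comparison that were not called, 17 were called under at least 1 alternative. At 0.1 µM against DMSO the 4 members called became 1 under the covariate (the share of reads outside genes), 7 with DESeq2 and 1 without the pair of libraries with outlying sterol enzymes, and ranged from 2 to 6 when single libraries were left out. At 1 µM against DMSO the count of 3 became 5 with only the libraries compared and 2 to 5 without single libraries, the 5 without 0.1 µM replicate 2. In both cases the 5 were 4 higher and 1 lower, lbr. At 10 µM against DMSO it was 2 on leaving out any single library. Between 0.1 and 1 µM the count of 0 became 1 with the replicate block and 1 with DESeq2, and 0 to 1 without single libraries. Between 1 and 10 µM the count of 2 became 1 with the covariate, and 1 to 2 without single libraries. Between 0.1 and 10 µM the count of 8 became 1 with the covariate, 4 with only the libraries compared and 3 without the outlying pair, and 3 to 9 without single libraries. Over the 4 groups at once the count of 7 became 3 with the covariate and 4 without the outlying pair, and 5 to 9 without single libraries. The cause of these differences was not tested.

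The deviations of same-numbered replicates from their group means had correlations between -0.18 and 0.23, with 1 of 24 over 0.1. Such correlations cannot show whether samples were paired. The labels name no pairing, so the main fit used none. With the replicate block the counts were 4, 2 and 2 against DMSO, 2 between 1 and 10 µM, 6 between 0.1 and 10 µM and 5 over all groups.

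The calls over all genes moved too. With the covariate, 734 calls became 207 at 0.1 µM against DMSO, 2650 became 1076 at 1 µM, 1315 became 53 between 1 and 10 µM, 4567 became 275 between 0.1 and 10 µM and 5519 became 3145 over the 4 groups. Between 0.1 and 1 µM the 208 calls became 7 with only the libraries compared and 586 with DESeq2, and at 0.1 µM against DMSO 440 were called without the outlying pair. Both added pairs of omitted libraries were chosen after the data were seen, the pair with outlying sterol enzymes by the enzyme values themselves. Depth limits the scarcest members most.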
